A study of Mus musculus with 2 samples.

Results

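The 8 genes followed here encode enzymes of the heme pathway: Alas2 and Alas1, then Alad, Uros, Urod, Cpox, Ppox and Fech in the order of the steps. They were taken by symbol from 43346 mouse gene entries, and their 44 annotated transcripts from 103639 transcript entries. The data are 2 polyadenylated RNA libraries of G1E-ER4 cells, an immortalized mouse erythroid line. It is listed as male and at the 0 day postnatal stage, a label that need not describe how the line was derived. The line has no working Gata1 of its own. It expresses instead a fusion of GATA1 with an estrogen receptor's hormone-binding domain, and all cells had received 10 nM 17beta-estradiol for 24 hours. Both libraries are of this 1 group and cite 1 biosample record, so their spread may be technical; untreated cells were not analysed here, and no test between conditions was possible.

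Heme synthesis starts in mitochondria, where 5-aminolevulinate synthase joins glycine to succinyl-CoA. Alas2 is the X-linked erythroid form of this enzyme and Alas1 the form used in most other tissues. The middle steps run in the cytosol, where Alad makes porphobilinogen, Uros makes the ring of uroporphyrinogen III and Urod removes carboxyl groups from its side chains. Cpox and Ppox then carry out the oxidations that lead to protoporphyrin IX in mitochondria, and Fech, ferrochelatase, inserts iron into it. In red cell precursors the pathway supplies heme for hemoglobin, and translation of Alas2 mRNA is held back by iron regulatory proteins when iron is short.

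The libraries differed 5.09-fold in depth: replicate 1 held 70451041 estimated counts and replicate 2 held 13841484. With 3 counts as the limit, a count of 0 allowed up to 0.0426 counts-per-million (CPM) in replicate 1 and up to 0.217 CPM in replicate 2. These limits and the 95% Wilson intervals below cover counting error only. All 10 erythroid markers reached at least 1 transcript-per-million (TPM) in both libraries, with Hbb-bs, a beta globin, the highest and Tfrc, the transferrin receptor, the lowest by mean TPM. The erythroid markers summed to 233246 TPM in replicate 1 and 89006 in replicate 2. On the scaled counts described below, 5 of the 10 were at least 2-fold higher in replicate 1 and 1 in replicate 2. Over all 8884 genes at a mean of 1 CPM or more, 2663 were so in replicate 1 and 1593 in replicate 2. None of 6 liver, 6 myeloid or 5 lymphoid markers reached 1 TPM in both libraries, and their sums ranged from 0 to 2.71 TPM. Alb, Ttr, Cyp2e1, Serpina1a, Csf1r, Lyz2 and Cd3e were at 0 counts in both libraries. Of 5 megakaryocyte markers, Itga2b and Gp9 reached 1 TPM in both; the 5 summed to 5.35 TPM in replicate 1 and 7.6 in replicate 2, with Pf4 and Ppbp at 0. In bulk RNA, fewer cells of a type and less RNA per cell cannot be told apart.

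Some annotated transcripts of these genes hold intron sequence or lack a full reading frame, and the results turn on 3 of them. Their stretches outside the coding transcript are shown in lower case, beside 16 bases in capitals that they share with the main coding transcript. Alas2-204, a noncoding processed transcript of 569 bases, shares 458 bases with Alas2-201 and has 111 intronic bases of its own at chrX:150566390-150566500 on the plus strand of mm10. Urod-209, a retained intron transcript of 598 bases, shares 470 bases with Urod-201 and has 128 intronic bases of its own at chr4:116991759-116991886 on the minus strand. Ppox-204, a processed transcript of 420 bases, shares 384 bases with Ppox-201; 29 of its 36 own bases are shown, at chr1:171280359-171280387 on the minus strand. All are read 5′ to 3′ from the GENCODE M21 transcripts.
Alas2-204: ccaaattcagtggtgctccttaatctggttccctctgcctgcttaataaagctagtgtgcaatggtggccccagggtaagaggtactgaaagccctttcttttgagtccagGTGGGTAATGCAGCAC
Urod-209: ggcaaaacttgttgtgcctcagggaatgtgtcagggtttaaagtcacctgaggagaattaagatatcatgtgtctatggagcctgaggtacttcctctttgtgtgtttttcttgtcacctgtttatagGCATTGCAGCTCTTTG
Ppox-204: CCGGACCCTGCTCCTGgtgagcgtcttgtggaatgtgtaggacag

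All 8 enzyme genes were detected, meaning at least 1 TPM in both libraries, against 17.2% of all gene entries. Alad was the highest and Alas1 the lowest in both libraries, a span from the 86th to the 7493rd rank among all gene entries in replicate 1 and from the 330th to the 6316th in replicate 2. The median of the members was 239 TPM in replicate 1 and 110.3 in replicate 2, against 19.0 and 14.7 TPM over the 7444 detected genes. Summed over the 8 genes, the level was 2531 TPM in replicate 1, or 0.253% of the library, and 1218 TPM in replicate 2, or 0.122%.

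**Figure D1:**
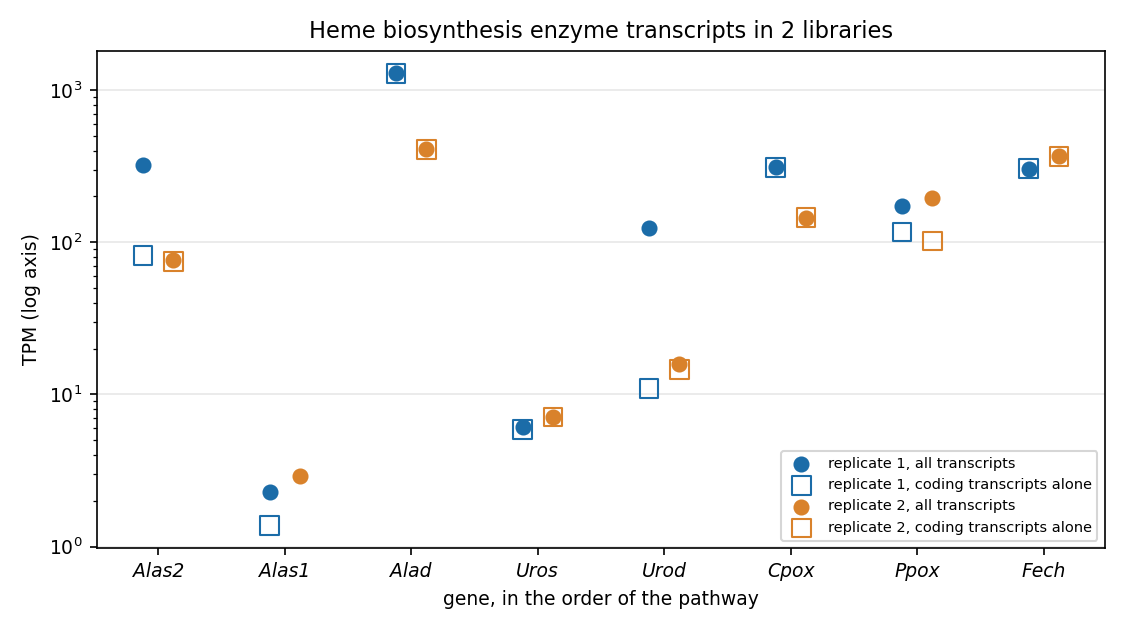
Level of each enzyme gene in TPM on a log axis, in the order of the pathway, with 1 point per library; filled circles count all transcripts and open squares protein coding transcripts alone, which for Alas1 in replicate 2 are at 0 and not drawn. The circles of Alas2 and Urod lie far above the squares in replicate 1, and those of Ppox lie above the squares in both libraries.

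At the first step, Alas2 (mm10 chromosome X, 150547375 to 150570638, plus strand) had 321 TPM in replicate 1 and 76.0 in replicate 2, from 17106 and 1542 counts. Its mean was 198 ± 173 TPM (SD, n = 2), so the spread was close to the level itself. The coding transcripts of Alas2 alone gave 81.5 TPM in replicate 1 and 74.4 in replicate 2, a mean of 78.0 ± 5.02 TPM (SD, n = 2). The 4.22-fold ratio of replicate 1 over replicate 2 in gene TPM was thus 1.10-fold in coding TPM.

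Alas1 (chromosome 9, 106233455 to 106248654, minus strand), the form of the enzyme found in most tissues, had 2.28 TPM in replicate 1 and 2.92 in replicate 2, a mean of 2.60 ± 0.453 TPM (SD, n = 2). These levels rest on 285 and 30 counts, or 4.05 CPM (95% Wilson interval 3.60 to 4.54) and 2.17 CPM (1.52 to 3.09). The CPM intervals do not overlap, and CPM was higher in replicate 1 whereas TPM was higher in replicate 2. TPM also depends on the estimated mean transcript length, which was 1968 bases in replicate 1 and 1048 in replicate 2. Alas2 stood above Alas1 by 7.07 on the log2 scale in replicate 1 and by 4.65 in replicate 2, with 0.1 TPM added to each value. With the coding transcripts of Alas2 alone, a setting chosen after the values were seen, the differences were 5.10 and 4.63. In TPM without an added value, these last differences are 35.8-fold and 25.5-fold, and the erythroid form was the higher in both libraries under either count.

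In the cytosol, Alad (chromosome 4, 62509169 to 62519918, minus strand), which makes porphobilinogen, had 1288 TPM in replicate 1 and 408 in replicate 2, from 94085 and 4922 counts, a mean of 848 ± 622 TPM (SD, n = 2). It held 50.9% of the members' summed TPM in replicate 1 and 33.5% in replicate 2. Uros (chromosome 7, 133686243 to 133710072, minus strand), uroporphyrinogen III synthase, had 6.07 TPM in replicate 1 and 7.09 in replicate 2, a mean of 6.58 ± 0.721 TPM (SD, n = 2). Uros was close in the 2 libraries, and its CPM intervals overlapped, at 8.89 CPM (8.22 to 9.61) and 7.73 CPM (6.40 to 9.34).

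Urod (chromosome 4, 116989965 to 116994413, minus strand), uroporphyrinogen decarboxylase, had 125 TPM in replicate 1 and 15.9 in replicate 2, from 4426 and 215 counts, a mean of 70.3 ± 76.9 TPM (SD, n = 2). This 7.83-fold ratio was the largest of the 8 genes on the TPM scale. Its coding transcripts gave 11.0 TPM in replicate 1 and 14.6 in replicate 2, a ratio of 0.751, so they were not higher in replicate 1. A difference the other way was not resolved. The deposited TPM intervals of Urod-201, the main coding transcript, overlapped, at 8.95 to 10.8 in replicate 1 and 9.89 to 13.4 in replicate 2. Among the members, Urod ranked sixth by gene TPM and also sixth by coding TPM.

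Back in mitochondria, Cpox (chromosome 16, 58670292 to 58717636, plus strand), coproporphyrinogen oxidase, had 311 TPM in replicate 1 and 145 in replicate 2, a mean of 228 ± 118 TPM (SD, n = 2). Its 65070 and 4943 counts gave 924 CPM (917 to 931) and 357 CPM (347 to 367), which do not overlap. Ppox (chromosome 1, 171275990 to 171281186, minus strand), protoporphyrinogen oxidase, had 174 TPM in replicate 1 and 197 in replicate 2, a mean of 185 ± 16.0 TPM (SD, n = 2). Fech (chromosome 18, 64452914 to 64490251, minus strand), which inserts the iron, had 304 TPM in replicate 1 and 366 in replicate 2, a mean of 335 ± 44.2 TPM (SD, n = 2). By TPM, Ppox and Fech, the last 2 steps, thus lay close between the libraries, while Cpox was higher in replicate 1. By CPM, Ppox was at 233 (230 to 237) in replicate 1 and 175 (168 to 182) in replicate 2, which do not overlap either. Fech was at 817 CPM (811 to 824) and 820 CPM (805 to 835), which overlap.

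Sorted by mean TPM, the order was Alad, Fech, Cpox, Alas2, Ppox, Urod, Uros and Alas1. In 4 of the 7 neighbouring pairs the library values did not overlap: Alad over Fech, Ppox over Urod, Urod over Uros and Uros over Alas1. The neighbouring pairs Fech and Cpox, Cpox and Alas2, and Alas2 and Ppox overlapped, although both values of Fech lay above both values of Ppox. With coding transcripts alone, Ppox moved above Alas2 and 6 of 7 pairs did not overlap, the exception being Fech and Cpox. The order by level is not the order of the steps: Alad acts early in the pathway and Fech last, and both stood at the top.

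The 5 mitochondrial enzyme genes summed to 1112 TPM in replicate 1 and 787 in replicate 2, which is 43.9% and 64.6% of the members' TPM. The 3 cytosolic genes summed to 1419 TPM in replicate 1 and 431 in replicate 2, or 56.1% and 35.4%. The larger share therefore lay in the cytosolic genes in replicate 1 and in the mitochondrial genes in replicate 2. Alad alone made up 1288 of the 1419 cytosolic TPM in replicate 1 and 408 of the 431 in replicate 2. The turn thus rests on Alad. Of the other cytosolic genes, Urod was also higher in replicate 1, at 125 against 15.9 TPM. Uros was not, at 6.07 against 7.09 TPM, so the 3 genes did not all differ the same way. By coding transcripts alone the mitochondrial share was 38.6% and 61.5%, with the same turn between the libraries.

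Of the 44 transcripts, 20 are annotated as protein coding and 24 are not, and 8 had 0 counts in both libraries. Cpox and Fech have 1 transcript each in the tables, Cpox-201 and Fech-201, both coding, so their gene and coding levels are the same. Among the other 6 genes, coding transcripts held 99.4% of Alad TPM in replicate 1 and 99.9% in replicate 2, and 97.4% and 100% of Uros TPM. The remaining 4 genes, Alas2, Alas1, Urod and Ppox, had a large noncoding share in at least 1 library. For Alas1 the coding share was 60.5% in replicate 1 and was listed at 0 in replicate 2.

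**Figure D2:**
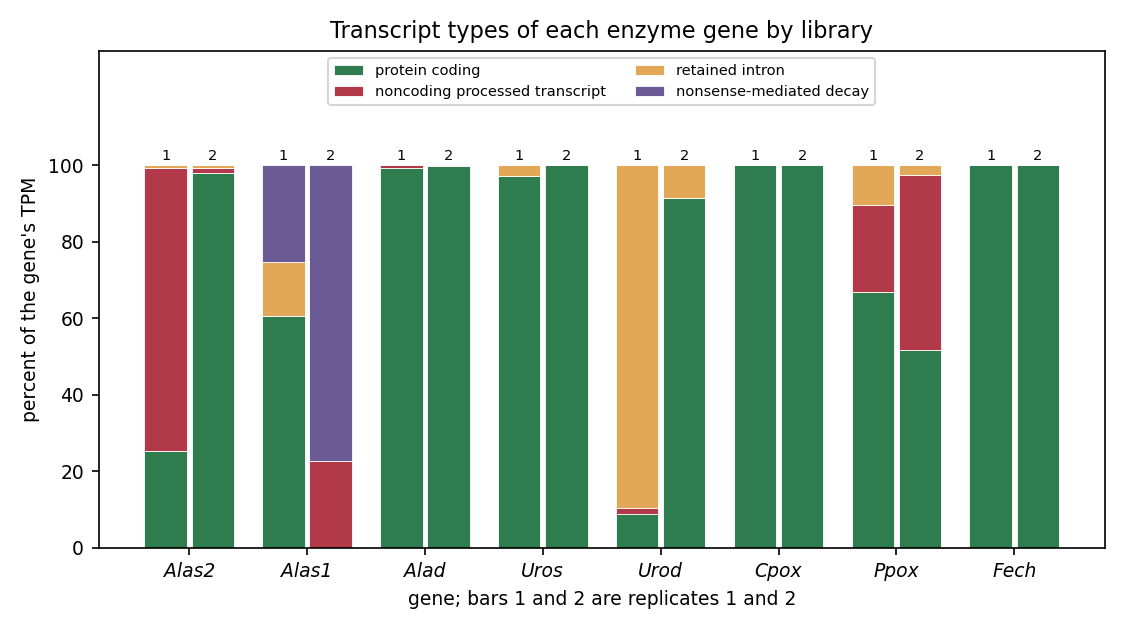
Percent of each gene's TPM held by protein coding, noncoding processed, retained intron and nonsense-mediated decay transcripts, with bars 1 and 2 for replicates 1 and 2. The coding share of Alas2 is 25.4% in replicate 1 and 98.0% in replicate 2. That of Urod is 8.78% and 91.6%, the latter from 215 counts. Alad, Uros, Cpox and Fech are nearly all coding in both.

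For Alas2, coding transcripts held 25.4% of the TPM in replicate 1 and 98.0% in replicate 2. TPM divides by length and so weighs short transcripts up. Of the counts, coding transcripts held 59.9% in replicate 1 and 99.5% in replicate 2. Alas2-204 alone held 73.8% in replicate 1, with 237 TPM (deposited interval 228 to 240.2) from 6804 counts, and 1.31% in replicate 2, with 1.00 TPM (0.176 to 2.97) from 4.9 counts. Its sequence is largely shared with the last exons of Alas2-201, so reads in the shared exons were divided between the transcripts by the authors' quantification, and coverage of the 111 own bases was not analysed here. The listed levels of the coding pair were close between the libraries. Alas2-201 had 46.5 TPM in replicate 1 and 42.5 in replicate 2, and Alas2-202 had 35.0 and 31.9 TPM. Within the pair, Alas2-201 held 57.0% in replicate 1 and 57.1% in replicate 2. All 1892 bases of Alas2-202 also lie in Alas2-201, so reads of the pair were likewise divided by the quantification. In replicate 2 the deposited intervals were 35.1 to 45.2 TPM for Alas2-201 and 24.7 to 35.2 TPM for Alas2-202.

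Alas2-201 and Alas2-202 both carry the iron-responsive element by which iron regulatory proteins bind the 5′ end of the mRNA, and its loop is shown because it is the known iron switch of this step. The stretch lies in the first exon, in the 5′ UTR, at chrX:150547459-150547485 on the plus strand of mm10, and the capitals mark the loop. Both transcripts hold the same 27 bases, with the loop starting at position 96 of Alas2-201 and at position 12 of Alas2-202. Alas2-204 begins far downstream and does not hold them. Transcripts with the element were assigned 98.0% of Alas2 TPM in replicate 2, but 25.4% in replicate 1. Of Alas2 counts they were assigned 99.5% in replicate 2 and 59.9% in replicate 1.
Alas2 iron-responsive element: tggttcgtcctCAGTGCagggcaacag

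For Urod, coding transcripts held 8.78% of the TPM in replicate 1 and 91.6% in replicate 2. Of the counts they held 21.5% in replicate 1 and 92.7% in replicate 2. Urod-209 held 81.9% in replicate 1, with 102 TPM (deposited interval 97.4 to 105) from 3142 counts, and was listed at 0 in replicate 2. Urod-201, the full-length coding transcript, had 10.2 TPM in replicate 1 and 12.6 in replicate 2, which is 8.14% and 79.4% of the gene. The short coding transcript Urod-204 had 0.79 and 1.95 TPM, or 0.63% and 12.2%. By posterior mean TPM, replicate 2 shares were 57.4% for Urod-201 and 10.4% for Urod-204. The replicate 2 shares of Urod rest on 215 counts and are only loosely determined. As for Alas2, the coding level was close between the libraries and the noncoding level was not.

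For Ppox, coding transcripts held 67.0% of the TPM in replicate 1 and 51.8% in replicate 2. Of the counts they held 81.6% in replicate 1 and 79.6% in replicate 2. Ppox-201 had 116 TPM in replicate 1 and 102 in replicate 2, while Ppox-204 had 39.4 and 90.0 TPM, from 728 and 292 counts. Here the noncoding share was the larger in replicate 2, at 45.7% for Ppox-204 against 22.6% in replicate 1, the opposite of Alas2 and Urod. Ppox-204 lies in the first part of the gene, whereas Alas2-204 and Urod-209 lie in the last part.

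**Figure D3:**
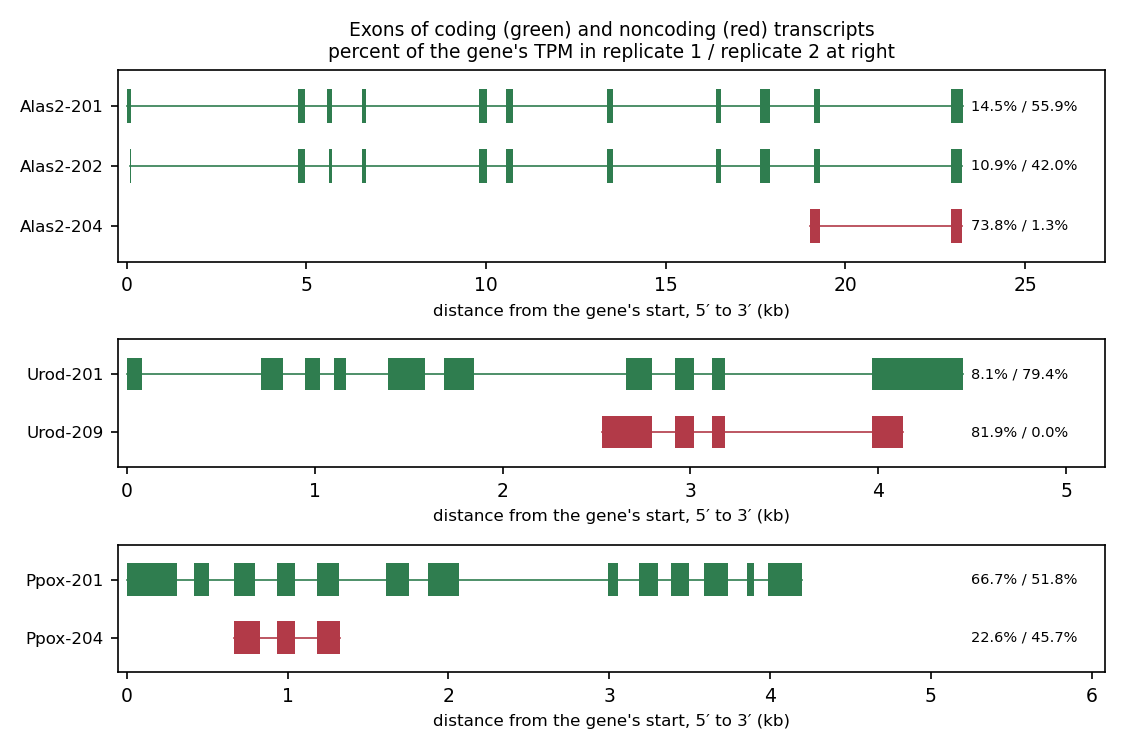
Exons of the leading coding transcripts (green) and of Alas2-204, Urod-209 and Ppox-204 (red), by distance from the gene's start in kilobases, with the percent of gene TPM in replicate 1 and replicate 2 at the right of each transcript. Alas2-204 and Urod-209 cover exons at the 3′ end, and Ppox-204 covers exons in the first part of the gene.

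Across 3700 genes with a mean of at least 10 TPM and several transcripts, the leading transcript differed between the libraries in 33.5%. Among the members it differed in 2 of the 4 that could be compared, Alas2 and Urod, and was the same for Alad and Ppox. A coding share lower by at least 50 percentage points in replicate 1 was found in 3.39% of 3125 genes, and lower by as much in replicate 2 in 4.74%. Alas2 and Urod, 2 of the 4 members in that set, were among those lower in replicate 1 and none was among those lower in replicate 2. The 50-point limit was set after the values of Alas2 and Urod were seen, so the count is a description. The median coding share of the 3125 genes was 78.6% in replicate 1 and 78.2% in replicate 2, so the medians differed by less than 1 point.

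Alad-201 held 94.6% of Alad TPM in replicate 1 and 94.0% in replicate 2, and Alad-202, which differs in its first exon, held 4.86% and 5.90%. These shares hardly differed, although the gene's TPM differed 3.16-fold. For Uros, Uros-203 held 50.1% and Uros-201 41.6% in replicate 1, whereas in replicate 2 Uros-204 held 84.8%, Uros-203 10.7% and Uros-201 was listed at 0. These Uros transcripts are all coding, and the replicate 2 shares rest on 107 counts. For Alas1, Alas1-207 (49.1%), Alas1-208 (25.3%), Alas1-203 (14.2%) and Alas1-201 (11.4%) shared the TPM in replicate 1. In replicate 2, 77.2% went to Alas1-208, a nonsense-mediated decay transcript, and 22.8% to Alas1-206, but from 30 counts in all. The deposited interval of Alas1-208 in that library ran from 0.00145 to 2.74 TPM, so its share was not determined at this depth.

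On scaled counts the libraries were then set side by side for all genes. After TMM scaling, 47.9% of the 8884 genes at a mean of 1 CPM or more were at least 2-fold apart between the libraries, 2663 higher in replicate 1 and 1593 in replicate 2. Of the members, 2 of 8 were, both higher in replicate 1: Alad with a log2 ratio of replicate 1 over replicate 2 of 1.51 and Urod with 1.62. Cpox at 0.97, Alas2 at 0.73 and Alas1 at 0.50 were also higher in replicate 1 but under 2-fold, Ppox was at 0.02, and Uros at -0.20 and Fech at -0.40 were lower in replicate 1. The median log2 ratio of replicate 1 over replicate 2 was 0.61 for the members and 0.20 for all genes tested, and the median of its size without sign was 0.61 and 0.95. Differences of this size were common between these libraries, so a 2-fold ratio of a member carries little weight on its own.

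**Figure D4:**
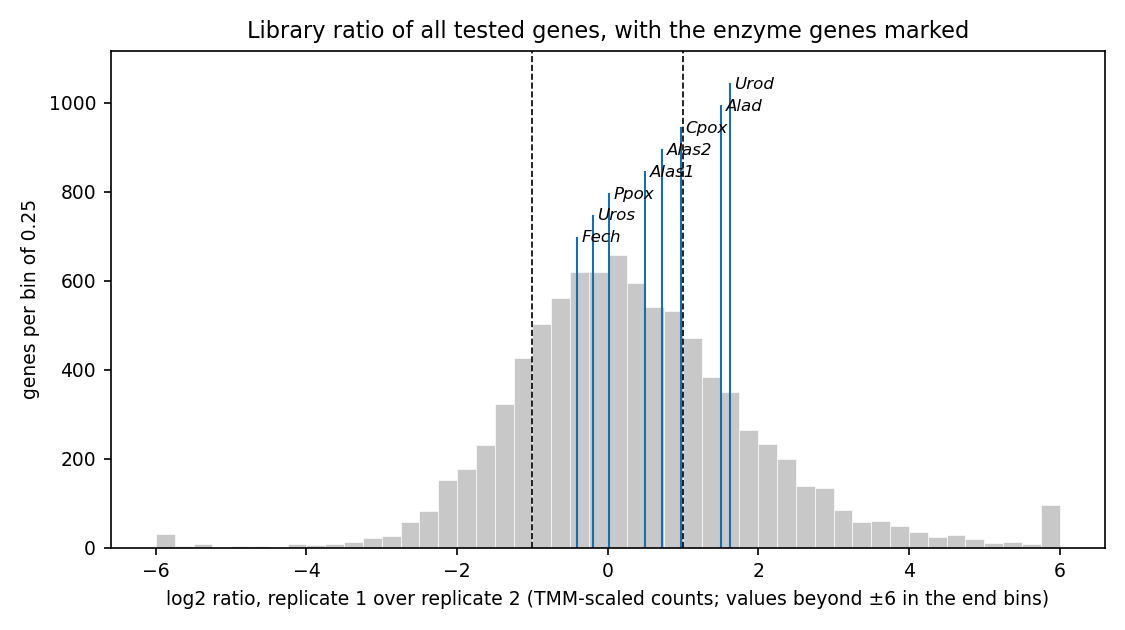
Histogram of the log2 ratio of replicate 1 over replicate 2 in TMM-scaled counts for 8884 genes, in bins of 0.25, with blue lines marking the 8 enzyme genes and dashed lines a 2-fold ratio. Urod and Alad lie beyond the dashed line at the right, and the other 6 lie between the dashed lines.

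The counts of coding transcripts alone, a setting added after the values were seen, placed 51% of 8133 genes at least 2-fold apart. Alad stayed among the members called, with a ratio of 2.83. Alas1, whose coding transcripts held 245 counts in replicate 1 and 0 in replicate 2, was the other. Urod, at 3.07-fold by all transcripts, was at 0.713 by coding transcripts, and Alas2, at 1.65-fold, was at 0.995. Whether Urod stood higher in replicate 1 depends on whether its retained intron transcripts are counted. Depth, effective length, the globin and other erythroid levels given above, and the replicate itself all moved together between the 2 libraries and cannot be told apart.

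Several genes overlap the members on the genome, and no source used here says whether the counting used strand. Apex2, a DNA repair nuclease gene on the opposite strand, spans Alas2 in the annotation and shares 311 exon bases with it; it had 155 counts (0.81 TPM) in replicate 1 and 56 counts (7.87 TPM) in replicate 2. Mir3620, 61 bases inside Alas2, had 0 counts in both. B4galt3, a galactosyltransferase gene, shares 791 exon bases with Ppox through the long retained intron transcript Ppox-207, and had 2760 and 559 counts. The antisense gene 4930500F10Rik shares 465 bases with Alas1 and had 1 and 0 counts. Bccip overlaps the span of Uros but shares 0 exon bases with it, and had 5433 and 113 counts. Beside Alas1, Alas2 and Ppox the shared bases make a part of the counts uncertain, and the size of that part was not tested.

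GATA1 is a known activator of several of these genes in erythroid cells, so the promoter windows of RefSeq (GRCm38.p6, 250 bases before to 50 after the start) were searched on both strands for GATA with A or T in front and A or G behind. Of the 8 members 7 had windows, 10 in all, and 3 of the 10 held at least 1 match, against 29.8% of 32851 windows of 300 bases in the same table. Cpox held 3 matches, at -91, -86 and 4 from the start, where the first 2 overlap by a base; 1.76% of all windows held 3 or more. Alas2 held 1 match at -86, and Uros held 2, at -205 and -68, in front of a start inside its first intron. The Uros transcript near that start, Uros-209 of 371 bases, had 3.21 counts in replicate 1 and 0 in replicate 2. It shares 174 bases with the longer Uros-204, to which shared reads can be assigned, so these counts do not measure use of that start. The windows of Alas1, Alad, Urod and Ppox held none of these letters. Positions are counted from the RefSeq starts, 150547417 for Alas2 and 58670208 for Cpox. Shown are chrX:150547167-150547374 for Alas2 and chr16:58669958-58670207 for Cpox, both on the plus strand, with the matches that fall in them in capitals. The Alas2 stretch ends before the start of Alas2-201 at 150547375, and the Cpox stretch before its RefSeq start. A match is a description of the letters, not of binding.
Alas2 promoter: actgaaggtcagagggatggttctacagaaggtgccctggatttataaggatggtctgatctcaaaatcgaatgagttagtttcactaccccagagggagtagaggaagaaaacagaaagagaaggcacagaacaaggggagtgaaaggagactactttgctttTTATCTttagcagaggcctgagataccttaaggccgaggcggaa
Cpox promoter: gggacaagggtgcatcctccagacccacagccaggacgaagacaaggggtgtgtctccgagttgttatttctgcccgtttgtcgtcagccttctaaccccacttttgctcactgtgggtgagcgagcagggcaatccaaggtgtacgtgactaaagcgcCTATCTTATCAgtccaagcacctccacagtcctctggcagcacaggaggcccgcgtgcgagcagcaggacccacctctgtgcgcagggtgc

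Around the pathway, 15 of 15 genes for substrate supply and mitochondrial transport were detected, with a median of 35.3 TPM over the mean levels, against 192 TPM for the 8 enzymes. The highest by mean TPM was Tmem14c, which moves protoporphyrinogen into the mitochondrial matrix, with 1072 TPM in replicate 1 and 558 in replicate 2. Suclg2, a subunit of a succinyl-CoA ligase, was the lowest with 3.52 and 4.12 TPM. On TMM-scaled counts 5 of the 15 were at least 2-fold higher in replicate 1 (Slc25a39, Abcb6, Sucla2, Suclg1 and Shmt2, named after their values were seen) and 0 in replicate 2. Over all 8884 genes tested, 2663 were at least 2-fold higher in replicate 1 and 1593 in replicate 2.

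Of 7 genes for heme export and breakdown, 5 were detected. Blvrb, a biliverdin reductase, was the highest with 3584 TPM in replicate 1 and 2946 in replicate 2, above each of the 8 enzyme genes. Flvcr2 had 0 counts in both libraries. Of 6 that could be compared, Abcg2 and Blvra were at least 2-fold higher in replicate 1 and Flvcr1 in replicate 2. These 3 were named after their values were seen. Beside them stand 2663 and 1593 of the 8884 genes tested, higher in replicate 1 and replicate 2.

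Of 11 known regulators of the enzymes, 9 were detected. The highest by mean TPM was Zfpm1, which encodes the GATA1 partner FOG1, with 2396 TPM in replicate 1 and 5084 in replicate 2. Ppargc1a, which raises Alas1 in fasting liver, had 0 counts in both libraries. Klf1 (named after its value was seen) and Zfpm1 were at least 2-fold higher in replicate 2, of 9 compared, and 0 were in replicate 1. Among all 8884 genes tested, 1593 were so in replicate 2 and 2663 in replicate 1. The Gata1 entry, named here for its role, had 3038 TPM in replicate 1 and 2940 in replicate 2; reads of the fused GATA1 and of the line's own locus cannot be told apart in it.

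**Figure D5:**
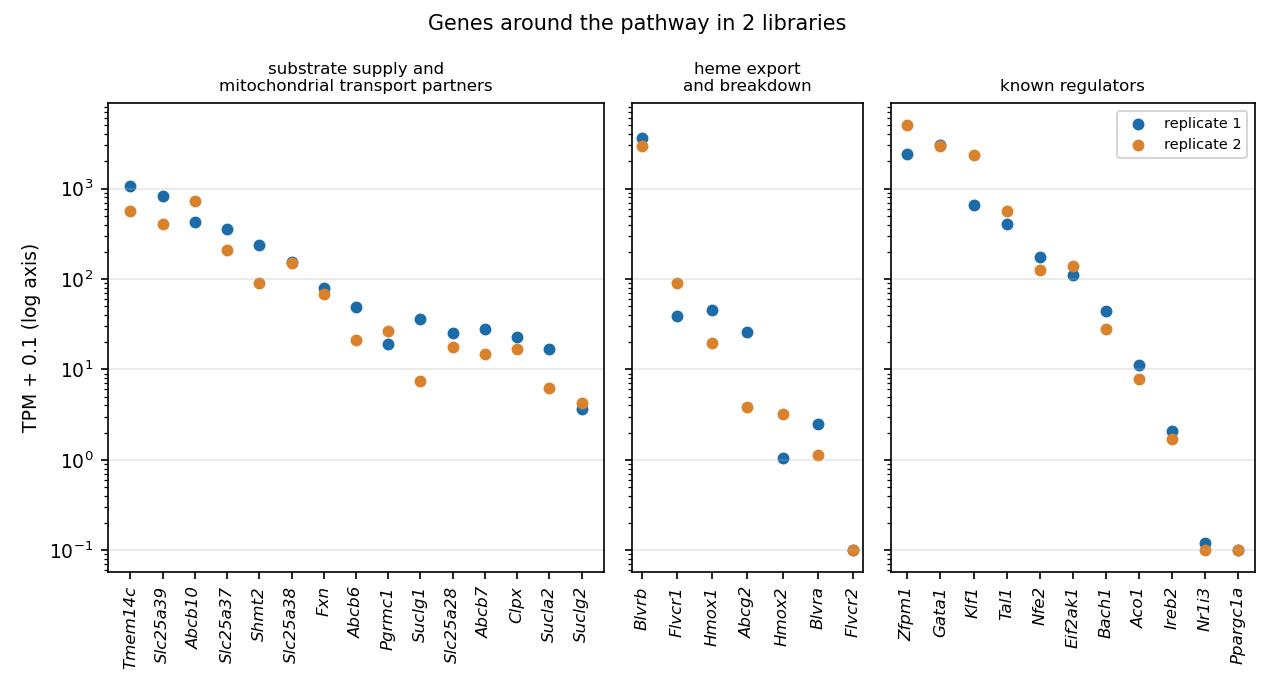
TPM plus 0.1 on a log axis for the genes of the 3 lists around the pathway, with 1 point per library. Blvrb, Zfpm1 and Gata1 lie highest, and Flvcr2 and Ppargc1a lie at the bottom with 0 counts in both libraries.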

How the data were processed

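Polyadenylated RNA of 2 libraries of 1 group was measured by paired-end sequencing. Per the text deposited beside the tables, transcripts were quantified on mm10 with GENCODE M4; the sources used here do not give the aligner, quantification tool, strand setting or level of the deposited intervals. The authors' deposited tables hold estimated counts (not always whole), TPM and FPKM corrected for effective length, and the percent of gene TPM in each transcript. The deposited TPM intervals surround posterior means, and 6 of 16 member values lie outside theirs. Effective lengths were 152 bases (replicate 1) and 130 bases (replicate 2) shorter than full lengths.

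Names, types, positions and transcript sequences came from GENCODE M21 on the same assembly, matched by identifier; 4 of the 44 transcripts have another length there. The 26345 entries that name no gene, with 3 counts in replicate 1 and 0 in replicate 2, were left out. Counts were rounded and TMM factors of 1.15 for replicate 1 and 0.871 for replicate 2 were taken from edgeR 4.0.16, with a prior count of 0.5. The steps were run on simulated counts in which few genes differed, as many up as down. The libraries here differ in many more genes and unevenly, so that run does not test the calls made on them. Called means at least 2-fold apart; with 1 library a side no p-value was computed. Alternatives used posterior means, FPKM, other minimum levels and pseudocounts, DESeq2 1.42.0 size factors, total counts, coding transcripts alone, and each library alone. Python 3.11.15 and R 4.3.3 were used.

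Named are the members, their transcripts with at least 10% of the gene's TPM in either library, overlapping genes, the highest and lowest genes of each list by mean TPM, and those with 0 counts in both libraries. Alad-202, Ppox-207, Uros-209, Gp9 and Gata1 lie outside this rule and, like the others so marked in the text, were chosen after their values were seen. The members and lists were chosen with earlier results of these data known. 1 step of the pathway is not reported here.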

Additional observations from a re-analysis of the deposited data

How the results depend on the processing

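Of 38 alternative values for 7 results, 31 stayed within the set limits, 7 moved and 0 reversed. This tally compares the size of each value, not which members make it up. With coding transcript counts, 2 members were again 2-fold apart, but they were Alas1 and Alad in place of Alad and Urod. Urod was also no longer higher in replicate 1 there, at 0.713-fold, which the tally does not count. The limits are wide, as 25.4 and 98.0 for the coding percent of Alas2 TPM both fell within them around a mean of 61.7. With coding transcripts alone the median member level was 93.6 TPM in place of 192, and the log2 ratio of Alas2 over Alas1 was 7.66 in place of 5.86, because the coding transcripts of Alas1 are at 0 in replicate 2. Members at least 2-fold apart numbered 4 in place of 2 (Alas2 and Cpox added) with total counts, with TPM and a pseudocount of 0.1 or 1, and at 1.5-fold. With a minimum of 1 TPM the leading transcript differed in 4 members in place of 2 (Alas1 and Uros added). With each library alone the median member level ranged from 110.3 to 239 TPM, the coding percent of Alas2 TPM from 25.4 to 98.0, and the log2 ratio of Alas2 over Alas1 from 4.65 to 7.07. By share of counts, the mean coding percent of Alas2 was 79.7 in place of 61.7. No paired analysis was possible because both libraries belong to 1 group. Depth limits Alas1, Uros and Urod most in replicate 2, with 30, 107 and 215 counts.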
